A study of Mus musculus with 180 samples.

Results

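Oligodendrocytes wrap axons in myelin, and their genes give a readout of glial RNA in a hippocampal series built around neurons. The 9 genes described here are Mbp, Mog, Mag, Mobp, Cnp, Mal, Cldn11, Opalin and Sox10, taken by symbol as 9 of the 54429 rows of a table of read counts per gene. All 9 were found, and all 9 passed the filter on low counts in every comparison. The table holds 180 RNA-seq libraries from the brains of 30 male mice, with 6 libraries from each mouse. Every mouse carried the transgene Tg(Camk2a-cre)T29-1Stl (B6.Cg line) through a cross to the B6N.129-Rpl22tm1.1Psam/J line, so that Cre recombinase driven by the Camk2a promoter, which is active in excitatory forebrain neurons, puts an HA tag on the ribosomal protein Rpl22. The 4 groups were NoCFC Sleep (8 mice), NoCFC SD (7), CFC Sleep (8) and CFC SD (7), where CFC is contextual fear conditioning, NoCFC is its absence (home cage, HC, in the series' design) and SD is sleep deprivation as opposed to sleep as usual. Ages and the hours of deprivation are not given in the sources used here.

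From each mouse, tissue was parted into a cytosolic supernatant and a membrane-bound pellet. From each fraction RNA was sequenced as whole Input, after pull-down with an antibody to HA (the Camk2a capture) and after pull-down with an antibody to phosphorylated ribosomal protein S6 (the pS6 capture, which favours ribosomes of recently active cells). Each library is thus 1 of 6 types. All types carry the cell type label neuron, the Input included, although all 9 oligodendrocyte genes were counted in all 180 libraries.

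Compact myelin is a stack of oligodendrocyte membrane. Mbp encodes the basic protein that zips the cytoplasmic faces of that membrane together, Mobp a second basic protein of the same faces, and Cnp a cyclic-nucleotide phosphodiesterase anchored at the inner face by a lipid. Mog, Mag, Mal, Cldn11 and Opalin encode proteins that span the membrane: a glycoprotein of the outermost lamella, an adhesion receptor facing the axon, a proteolipid of lipid-raft transport, the claudin of myelin's tight junctions, and a sialylated glycoprotein of myelin and paranodes. Sox10 encodes the transcription factor that holds the lineage on its course and drives many myelin genes. Messenger RNA of membrane-spanning proteins is translated at the endoplasmic reticulum, whereas RNA of cytoplasmic and nuclear proteins is mostly translated on free ribosomes. Mbp RNA is carried along the cell's processes and translated near the myelin.

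Total counts per library, in units of 1000000, ran from 11.98 to 26.95 with a mean of 18.8 ± 3.03 (SD, n = 180), and no 2 libraries of a group agreed within sampling noise (the lowest chi-square per degree of freedom over 588 pairs was 2.86). Levels are counts scaled to a library total of 1000000 (CPM), and mouse number n gives the mouse in the labels. Counting noise was largest for Cldn11 in the cytosolic Camk2a capture, with a median of 28 counts and a lowest count of 13 per library.

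All 9 genes had their lowest mean in the cytosolic Camk2a capture. Together they made up 0.0343% of its counts on average, 0.137% of the membrane Camk2a capture, 0.0791% and 0.196% of the cytosolic and membrane pS6 captures, and 0.255% and 0.390% of the cytosolic and membrane Input. The order of the types was not the same for every gene: the membrane Input was highest for 7 of them, and the cytosolic Input for Cnp and Sox10. The 6 types came from the same mice, so these shares compare captures and fractions of the same tissue. Between groups of mice, fewer oligodendrocytes and less RNA per oligodendrocyte cannot be told apart in these bulk libraries.

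Among the membrane-spanning proteins, Mog was listed at 2.82 ± 0.687 CPM (SD, n = 30) in the cytosolic Camk2a capture, where the 30 mice ran from 1.58 through a median of 2.73 to 4.33. In the membrane Input it stood at 156 ± 17.7 CPM, from 131 through 154 to 199, with no overlap with any other type. Its other types followed in the order membrane pS6 capture (64.3 ± 11.9 CPM), cytosolic Input (63.2 ± 9.52), membrane Camk2a capture (37.5 ± 11.8) and cytosolic pS6 capture (10.2 ± 1.51), and the first 3 of these overlapped from one to the next. Mag had higher CPM and showed the same order, from 13.8 ± 4.46 CPM in the cytosolic Camk2a capture to 335 ± 39.5 in the membrane Input. Mal ran from 6.83 ± 1.58 to 292 ± 43.7 CPM between the same types. The ranges of Mal in the membrane Input (244 to 427) and cytosolic Input (102 to 182) did not overlap.

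Cldn11 had the lowest CPM in the cytosolic Camk2a capture of all 9, 1.34 ± 0.351, with 0.669, 1.30 and 2.10 as lowest, median and highest. Per kilobase of exon, Opalin was lower there, at 0.610 against 0.716 CPM for Cldn11. Cldn11 was also the member in which the membrane pS6 capture came closest to the membrane Input, with 45.5 ± 7.69 CPM against 56.9 ± 10.1. Those ranges overlapped (33.2 to 67.7 and 26.3 to 75.7). The membrane Camk2a capture and the cytosolic Input were nearly level, at 21.1 ± 6.97 and 20.7 ± 3.62 CPM. Opalin ran from 1.796 ± 0.481 CPM in the cytosolic Camk2a capture through 37.0 ± 7.45 in the cytosolic Input to 56.2 ± 8.69 in the membrane Input, and these last 2 overlapped.

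Of the genes for proteins of the cytoplasmic face, Mbp had the highest CPM, before any scaling to length. It stood at 214 ± 18.9 CPM in the cytosolic Camk2a capture (175 to 254) and 2161 ± 303 in the membrane Input (1609 to 2666). The cytosolic Input, at 1115 ± 141 CPM, overlapped with the membrane pS6 capture at 1099 ± 248. Mobp was about as high in both Inputs, 337 ± 34.2 CPM in the cytosolic one and 379 ± 49.1 in that of the membrane fraction, with overlapping ranges. Cnp was higher in the cytosolic Input, 619 ± 62.7 CPM, than in the membrane Input, 421 ± 35.2, and the ranges (505 to 767 and 342 to 478) did not overlap. Sox10, the transcription factor, was also higher in the cytosolic Input without overlap, with 94.3 ± 12.4 CPM (60.5 to 114) against 43.1 ± 8.91 in the membrane Input (20.8 to 54.2).

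Levels of different genes compare only per length. The length used is the union of the exons of all annotated transcripts, 8469 bases for Mbp and 3639 for Cnp. Per kilobase of that union, Mbp held 132 CPM in the cytosolic Input, below Cnp at 170. In the membrane Input it held 255, above Cnp at 116 and Mal at 105. Which transcripts were expressed was not tested, and a shorter transcript would raise the value, so the order of Mbp and Cnp depends on this length. Opalin, at 12.6 and 19.1 CPM per kilobase, was near the bottom in both.

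**Figure D1:**
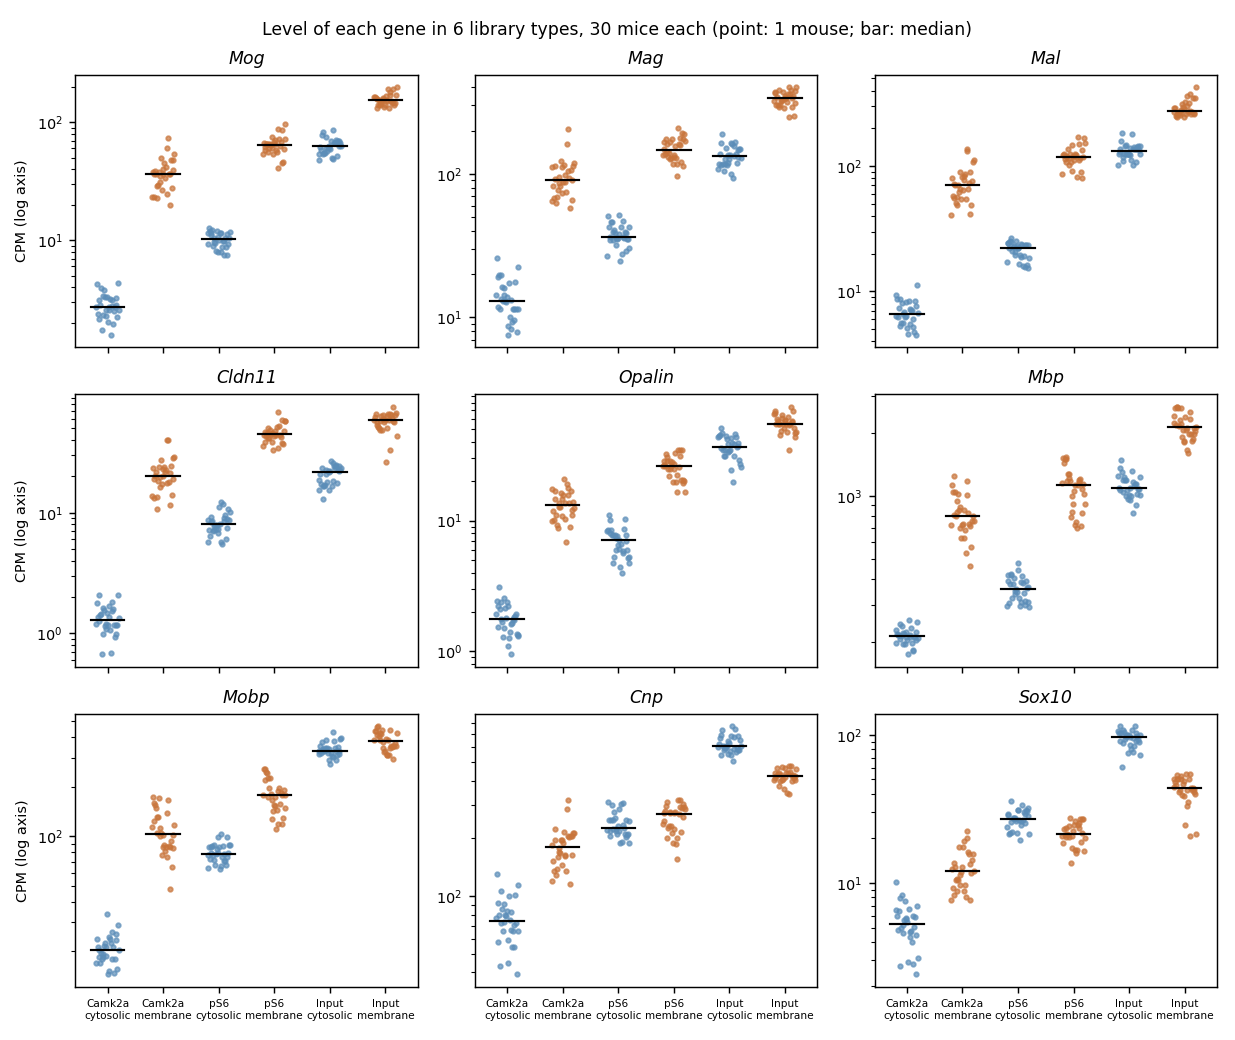
CPM (log axis) of each of the 9 genes in the 6 library types, 1 point a mouse (n = 30 a type) and a bar at the median, with cytosolic types in blue and membrane types in orange. Every gene is lowest in the cytosolic Camk2a capture, and Cnp and Sox10 are the 2 that are higher in the cytosolic than in the membrane Input.

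The next question was how each RNA divides between the membrane and the cytosolic fraction. The comparison was fitted for each capture over 60 libraries with edgeR's quasi-likelihood test, and a gene was called at a Benjamini-Hochberg adjusted p under 0.05 and a fold of at least 2. Differences are log2, membrane minus cytosolic, ± SE. In the Input, 5 of 9 were called higher in the membrane fraction (22% of 16529 genes tested were): Cldn11 by 1.73 ± 0.08, Mag by 1.59 ± 0.06, Mog by 1.57 ± 0.05, Mal by 1.40 ± 0.05 and Mbp by 1.21 ± 0.04. Opalin, at 0.88 ± 0.05, lay under the fold of 2. The remaining 3 were not called either: Mobp differed by 0.43 ± 0.04, Cnp by -0.29 ± 0.04 and Sox10 by -0.88 ± 0.07. Of the 5 called genes, 4 encode proteins that span the membrane, and Mbp is the exception.

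The split was also seen mouse by mouse, as ratios of CPM. The membrane to cytosolic ratio of Mag in the Input ran from 1.59 through a median of 2.58 to 3.31 and was above 1 in 30 of 30 mice, as it was for Mog, Mal, Cldn11, Opalin and Mbp. For Mobp it ran from 0.890 through 1.11 to 1.41 and was above 1 in 24 of 30 mice. For Cnp it ran from 0.568 through 0.668 to 0.815, and for Sox10 from 0.247 through 0.466 to 0.831, below 1 in all 30 mice for both. Ratios on library totals lie below the fitted folds: without TMM scaling, the median of all genes moved by -0.26 in the Input and Camk2a comparisons and by -0.23 in the pS6 comparison (log2), and Mbp then fell short of the fold of 2 in the Input at 0.95, while Sox10 passed it at -1.15.

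The membrane-spanning proteins can be told from the rest by a stretch of the coding sequence. For each gene, the 19-residue window with the highest mean Kyte-Doolittle hydropathy was found in the principal coding transcript (the longest of those marked principal in the GENCODE M21 annotation of GRCm38), and a mean of at least 1.6 is the usual mark of a membrane span. The windows are shown because they separate the members the same way as their proteins' places do. They are read 5′ to 3′ on the coding strand, and capitals mark codons with T as second base, which encode Phe, Leu, Ile, Met or Val.
Mog: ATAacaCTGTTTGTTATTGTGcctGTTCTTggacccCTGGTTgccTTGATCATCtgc
Mag: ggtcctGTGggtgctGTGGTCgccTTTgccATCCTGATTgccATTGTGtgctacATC
Mal: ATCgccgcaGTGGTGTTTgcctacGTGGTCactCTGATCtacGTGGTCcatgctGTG
Cldn11: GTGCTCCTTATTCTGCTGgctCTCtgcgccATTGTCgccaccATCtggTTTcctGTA
Opalin: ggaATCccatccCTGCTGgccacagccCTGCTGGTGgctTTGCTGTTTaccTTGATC
Mobp: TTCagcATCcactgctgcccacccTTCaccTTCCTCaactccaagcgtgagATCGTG
Cnp: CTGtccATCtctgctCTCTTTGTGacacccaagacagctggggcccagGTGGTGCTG
Sox10: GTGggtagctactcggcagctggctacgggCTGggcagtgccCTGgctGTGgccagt

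The window of Mog (residues 209 to 227 of 247) had 13 such codons of 19 and a mean hydropathy of 2.78. Cldn11 (residues 125 to 143 of 207) had 12 and 2.77, Mag (515 to 533 of 582) 10 and 2.49, Mal (126 to 144 of 153) 11 and 2.41, and Opalin (36 to 54 of 143) 11 and 2.31. None of the other genes reached 1.6: Cnp (283 to 301 of 420) had 8 codons and 1.28, Sox10 (310 to 328 of 466) 4 and 0.93, and Mobp (22 to 40 of 170) 7 and 0.33. The best window of Mbp had a mean of -0.09. The 5 genes with a window of 1.6 or more are the 5 membrane-spanning ones, and in the Input they took 5 of the 6 highest membrane minus cytosolic differences, with Mbp as the only other.

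The genes lie apart in the genome (GRCm38, coordinates of the annotated gene): Mog on chr17:37010743-37023398, Mag on chr7:30899176-30914873, Mal on chr2:127633226-127656695, Opalin on chr19:41061710-41077113 and Sox10 on chr15:79154908-79165240, all on the minus strand, and Mobp on chr9:120149707-120181484, Cnp on chr11:100574904-100591729 and Cldn11 on chr3:31149920-31164324 on the plus strand. All are protein-coding. Exons of Mobp share 79 bases with Gm38642 on the same strand and those of Cnp 154 bases with Dnajc7 on the other, and since the strand setting of the counting is not given in the sources used here, a few reads of these could be shared.

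The same division held over all genes as a description. In the Input, 53.7% of 5234 genes with a window of at least 1.6 were called higher in the membrane fraction, against 6.39% of 9071 genes without one, and their medians were 1.08 and -0.42 (log2). In the Camk2a capture the shares were 62.1% and 11.2%, and in the pS6 capture 55.8% and 9.67%.

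In both captures, more of the members were called higher in the membrane fraction, and by more. In the pS6 capture these were 7 of 9 (25.3% of 17855 genes): Mog by 2.90 ± 0.06, Mal by 2.73 ± 0.06, Cldn11 by 2.69 ± 0.07, Mag by 2.22 ± 0.07, Opalin by 2.15 ± 0.07, Mbp by 1.81 ± 0.05 and Mobp by 1.37 ± 0.06. Cnp, at 0.33 ± 0.05, and Sox10, at -0.10 ± 0.06 (adjusted p = 0.0778), were not called. In the Camk2a capture all 9 were (27.9% of 15779 genes), with Cldn11 first at 4.21 ± 0.10, then Mog at 3.97 ± 0.10, Mal at 3.66 ± 0.09, Opalin at 3.16 ± 0.09, Mag at 3.06 ± 0.11, Mobp at 2.65 ± 0.09, Mbp at 2.18 ± 0.06, Cnp at 1.52 ± 0.09 and Sox10 at 1.49 ± 0.11. Cnp and Sox10 were the 2 lowest of the 9 in each of the 3 comparisons. In single mice, the ratio of Cldn11 in the Camk2a capture ran from 9.28 through 15.4 to 25.96, and that of Sox10 from 1.16 through 2.23 to 6.60.

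Other genes of the oligodendrocyte lineage, from lists drawn up by role, divided along the same lines. In the Input, 9 of 15 further myelin membrane and junction genes were called higher in the membrane fraction (median 1.16, against -0.12 over all genes tested), 5 of 8 lipid genes (median 1.07), 9 of 10 precursor genes (1.99), 3 of 10 cytoplasmic and cytoskeletal genes (-0.03) and 0 of 9 transcription factors (-0.57). The highest were Matn4, a matrix protein, at 2.51 ± 0.07, the proteoglycan Cspg4 at 2.47 ± 0.07 and the secreted C1ql1 at 2.22 ± 0.05, all precursor genes. The lowest were Tppp, a tubulin-binding protein, at -1.32 ± 0.03, the transcription factor Nkx6-2 at -1.18 ± 0.06 and the cytoskeletal Ermn at -1.04 ± 0.05, which were called lower. Ermn stands in the myelin membrane and junction list, and its sign was opposite to that list's median. In the Camk2a capture, 6 of 9 transcription factors were called higher in the membrane fraction (median 1.37), beside 14 of 15 myelin membrane genes (2.63) and 8 of 8 lipid genes (2.46). Markers of other cell types gave 10 of 10 astrocyte, 10 of 10 microglia and 5 of 5 endothelial genes higher in the membrane fraction in each of the 3 comparisons.

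How far the members fell short of the Input in each capture was tested within a fraction, again over 60 libraries. In the cytosolic fraction all 9 were lower in the Camk2a capture (16.5% of 16421 genes were). Mog differed most, by -4.35 ± 0.07 or 20.4-fold, followed by Opalin at -4.23 ± 0.07, Mal at -4.14 ± 0.07, Sox10 at -3.99 ± 0.09, Mobp at -3.89 ± 0.06, Cldn11 at -3.82 ± 0.08, Mag at -3.15 ± 0.10 and Cnp at -2.89 ± 0.08. Mbp differed least, by -2.24 ± 0.04 or 4.73-fold. In single mice the cytosolic Camk2a capture held a median of 4.09% of the Input's CPM for Mog and 20.1% for Mbp, and no mouse reached the Input for any member.

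In the membrane fraction all 9 were again lower in the Camk2a capture (16.8% of 16128 genes), but by less: Opalin by -1.97 ± 0.07, Mog by -1.97 ± 0.07, Mal by -1.90 ± 0.07, Mag by -1.70 ± 0.07, Mobp by -1.68 ± 0.08, Sox10 by -1.64 ± 0.10, Cldn11 by -1.35 ± 0.09, Mbp by -1.29 ± 0.06 and Cnp by -1.10 ± 0.06. The 2 fractions' differences were compared in 1 fit over 120 libraries. The shortfall was smaller in the membrane fraction by at least 2-fold for 8 of 9 members (7.56% of 17054 genes), from 1.34 ± 0.12 for Mag to 2.35 ± 0.13 for Cldn11, with Sox10 at 2.24 ± 0.13, Mog at 2.27 ± 0.11 and Cnp at 1.67 ± 0.10. Mbp, at 0.84 ± 0.07, was not called. In 1 mouse, number 22, the membrane Camk2a capture exceeded the membrane Input for Cldn11 (ratio 1.22, median of mice 0.349) and Sox10 (1.07, median 0.258). In that mouse the capture held the highest levels of the 30 mice (40.1 and 22.4 CPM), and the membrane Input was low for the same 2 genes, with Cldn11 at 32.9 CPM (median of mice 58.7) and Sox10 at 20.8, the lowest of the 30 (median 43.6). The membrane pS6 capture exceeded the membrane Input for Cldn11 in 5 mice and for Sox10 in 2.

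The pS6 capture lay between the other types. In the cytosolic fraction all 9 members were lower than in the Input (8.84% of 17112 genes), from -1.25 ± 0.07 for Cldn11 and -1.31 ± 0.05 for Cnp to -2.57 ± 0.06 for Mal and Mog. In the membrane fraction 7 were lower (3.62% of 17101 genes), from -1.002 ± 0.07 for Sox10 to -1.30 ± 0.05 for Mal and Mog, while Cnp at -0.75 ± 0.05 and Cldn11 at -0.34 ± 0.07 were not called. The calls of Sox10 and of Mbp (-1.01 ± 0.05) rested on values at the fold limit: with the mouse as a block, Sox10 stood at -0.99 and was not called, and other scalings moved both below it. The shortfall was smaller in the membrane fraction by at least 2-fold for 3 members, Mal (1.33 ± 0.08), Mog (1.32 ± 0.08) and Opalin (1.26 ± 0.08), where 3.51% of 18174 genes were called; the other 6 lay between 0.59 and 0.97.

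Set against each other, the pS6 capture held more of 8 members than the Camk2a capture in the cytosolic fraction (22.3% of 16730 genes were higher). Cldn11 led at 2.46 ± 0.09, or 5.49-fold, followed by Sox10 at 2.17 ± 0.09 and Mobp at 1.78 ± 0.06, and Mbp, at 0.59 ± 0.04, was not called. In the membrane fraction none of the 9 reached the fold of 2 (16.5% of 16982 genes did), although all 9 had an adjusted p under 0.05 with differences from 0.27 ± 0.06 for Mbp to 1.00 ± 0.07 for Cldn11. Cldn11 lay at the limit, and was called at 1.01 with the mouse as a block and at 1.03 by DESeq2. These 3 kinds of comparison share libraries, so their values are set side by side only.

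Markers of other cells in the same libraries moved with the members. Against the cytosolic Input, the cytosolic Camk2a capture was called lower for 10 of 10 microglia genes, 9 of 10 astrocyte genes, 4 of 5 endothelial genes and 7 of 7 genes of inhibitory neurons, with medians of -3.85, -2.98, -2.98 and -3.51 beside -3.89 for the members. Of 6 excitatory neuron genes, 1 was called higher (median 0.72) and none lower. None of these marker genes was at 0 over all libraries of a type: the summed microglia genes, for example, ran from 11.9 to 20.9 CPM over the cytosolic Camk2a captures and from 137 to 203 over the cytosolic Inputs. Their part in the members' values was not tested.

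**Figure D2:**
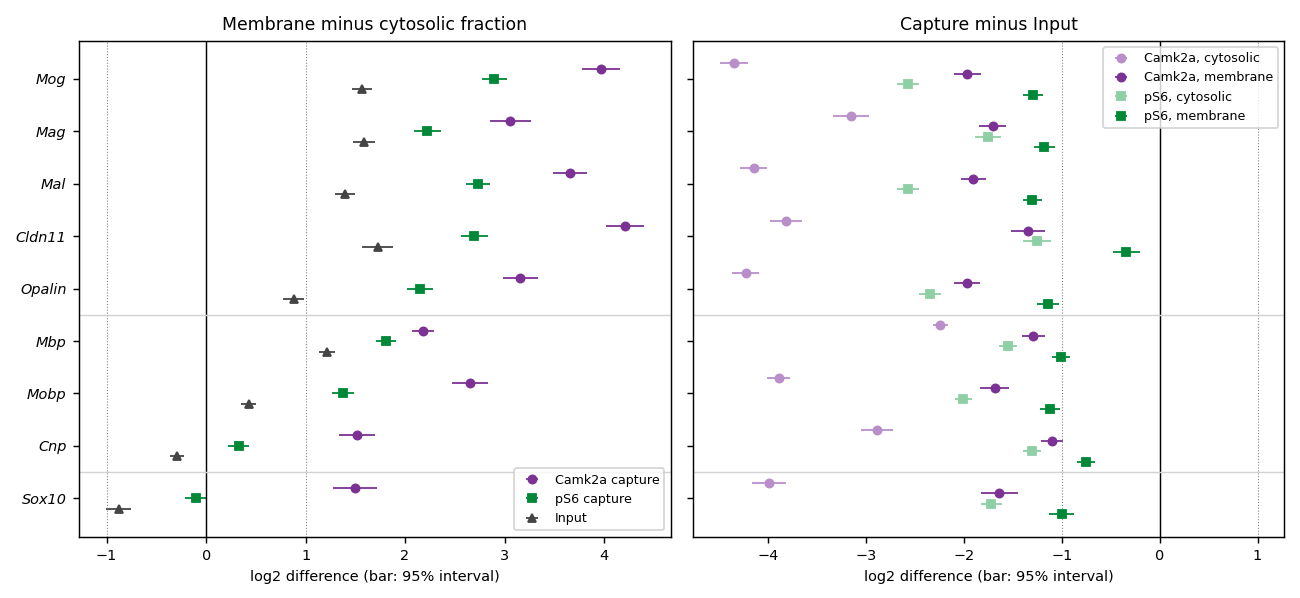
Log2 differences for the 9 genes with 95% intervals, membrane minus cytosolic fraction on the left and capture minus Input on the right, n = 30 mice a library type; grey lines part membrane-spanning proteins, proteins of the cytoplasmic face and Sox10, and dotted lines mark a fold of 2. Cnp and Sox10 lie leftmost in each series on the left, from -0.88 for Sox10 in the Input to 1.52 for Cnp in the Camk2a capture, and on the right the cytosolic Camk2a capture lies furthest below 0 for each gene.

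Sleep deprivation was compared with sleep in each library type, over 14 SD and 16 Sleep mice with training averaged, and calls were made at an adjusted p under 0.05 with no fold limit. One member passed the test. Opalin, the sialylated glycoprotein of mature oligodendrocytes, fell in the cytosolic Input (1 of 9 members called, beside 3.17% of 15948 genes), in the membrane Input (1 of 9, beside 1.37% of 15642) and in the cytosolic pS6 capture (1 of 9, beside 7.88% of 16485). No member was called in the cytosolic Camk2a capture (6.28% of 14836 genes called), the membrane Camk2a capture (2.97% of 14968) or the membrane pS6 capture (1.73% of 16637) by edgeR's test or by DESeq2, with 2, 0 and 2 members at an unadjusted p under 0.05.

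In the cytosolic Input, Opalin ran from 36.2 through a median of 44.98 to 51.5 CPM in the 8 NoCFC Sleep mice and from 28.9 through 34.8 to 44.9 in the 7 NoCFC SD mice. In the CFC mice it ran from 33.9 through 37.9 to 43.1 with sleep and from 19.8 through 27.3 to 39.2 after SD. The groups overlapped, with 12 of 14 SD mice below the median of the Sleep mice of their own training group. The difference was -0.36 ± 0.08 (95% interval -0.51 to -0.21, adjusted p = 0.00415).

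In the cytosolic pS6 capture the NoCFC groups were fully apart. Opalin ran from 7.99 through 8.54 to 10.99 CPM in NoCFC Sleep mice and from 4.72 through 5.93 to 7.73 in NoCFC SD mice. CFC Sleep mice (5.96, 7.09 and 7.80) and CFC SD mice (3.99, 5.29 and 6.62) overlapped. All 14 SD mice lay below the median of their Sleep counterparts, and the difference was -0.48 ± 0.09 (adjusted p = 0.000226). In the membrane Input the group means were 63.5 ± 6.80 CPM (SD, n = 8) for NoCFC Sleep, 51.3 ± 6.25 (n = 7) for NoCFC SD, 58.9 ± 5.75 (n = 8) for CFC Sleep and 49.8 ± 8.77 (n = 7) for CFC SD, and the difference was -0.29 ± 0.06 (adjusted p = 0.0107), with 13 of 14 SD mice below. That call was not made in 1 fit of all 180 libraries (-0.29, edgeR adjusted p = 0.0768).

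In the other 3 types the values of Opalin were -0.31 in the cytosolic Camk2a capture (adjusted p = 0.147, a median of 36 counts a library), -0.21 in the membrane Camk2a capture (0.404) and -0.28 in the membrane pS6 capture (0.116). Whether the effect differs between library types was not tested. Without mouse 21, the membrane pS6 capture was called at -0.35 (adjusted p = 0.0215, edgeR).

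The numbers of the mice fall into 3 runs: 1 to 11 are all NoCFC, 12 to 22 all CFC, and 23 to 30 hold 2 mice of each group. Both sleep states occur in each. Within runs 1, 2 and 3, Opalin differed by -0.34, -0.34 and -0.48 in the cytosolic Input, by -0.25, -0.20 and -0.45 in the membrane Input and by -0.47, -0.37 and -0.65 in the cytosolic pS6 capture. With the run as a term, edgeR's adjusted p was 0.00611, 0.0151 and 0.000336 in the same order.

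The other 8 members did not pass the test in any type. In the cytosolic Input they ran from -0.07 for Mag to 0.12 for Mobp (adjusted p = 0.236), and in the membrane Input from -0.20 for Sox10 (0.570) to 0.09 for Mal (0.574). The median of the 9 was -0.01 and -0.03 in these types, against 0.00 over all genes. The interval of Mbp in the cytosolic Input was -0.09 to 0.13, and that of Cnp in the membrane Input -0.12 to 0.05.

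Some genes of the lineage lists (15, 8, 10, 9 and 10 genes) also passed the SD test. Of all genes, 3.17% were called in the cytosolic Input, 1.37% in the membrane Input and 7.88% in the cytosolic pS6 capture. The shares were 1.73% in the membrane pS6 capture, 6.28% in the cytosolic Camk2a capture and 2.97% in the membrane Camk2a capture. Whether the lineage genes departed from these shares was not tested. Gpr17, a receptor of committed precursors that are about to differentiate, rose in 4 types: by 0.42 ± 0.10 in the cytosolic Input, 0.30 ± 0.07 in the membrane Input, 0.55 ± 0.13 in the cytosolic pS6 capture and 0.39 ± 0.08 in the membrane pS6 capture (adjusted p from 0.00559 to 0.0163). In the cytosolic Input the lower calls were the adhesion protein Ninj2 (-0.32 ± 0.09), Tmem125 (-0.28 ± 0.08) and the transcription factor Nkx6-2 (-0.33 ± 0.08), and Zfp488, a zinc-finger factor of the lineage, rose by 0.33 ± 0.09. In the cytosolic pS6 capture Anln, a septin-binding protein, fell by 0.36 ± 0.06, while Sox8 (0.18 ± 0.05) and C1ql1 (0.22 ± 0.06) rose. In the cytosolic Camk2a capture the contactin Cntn2 (0.38 ± 0.08), Myrf (0.31 ± 0.08), a membrane-bound regulator of myelin genes, and Sox8 (0.16 ± 0.04) rose and Gpr37 (-0.20 ± 0.06) fell, and Cntn2 also rose in the membrane Camk2a capture (0.39 ± 0.07). Of 10 precursor genes, 1 passed in the cytosolic Input, 1 in the membrane Input, 2 in the cytosolic and 1 in the membrane pS6 capture, all higher.

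Of the other cell types' markers, the astrocyte connexin Gjb6 rose by 0.32 and 0.38 in the cytosolic and membrane Input and by 0.81 in the cytosolic pS6 capture, where 7 of 7 genes of inhibitory neurons also rose and 2 of 6 excitatory genes fell. In both Inputs, 1 of 10 astrocyte genes passed, and none of the 10 microglia, 5 endothelial, 7 inhibitory or 6 excitatory genes did. The summed astrocyte genes in the cytosolic Input ran from 1489 to 1970 CPM in Sleep and from 1612 to 1910 in SD mice. The part of other cells in the values of Opalin was not tested.

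**Figure D3:**
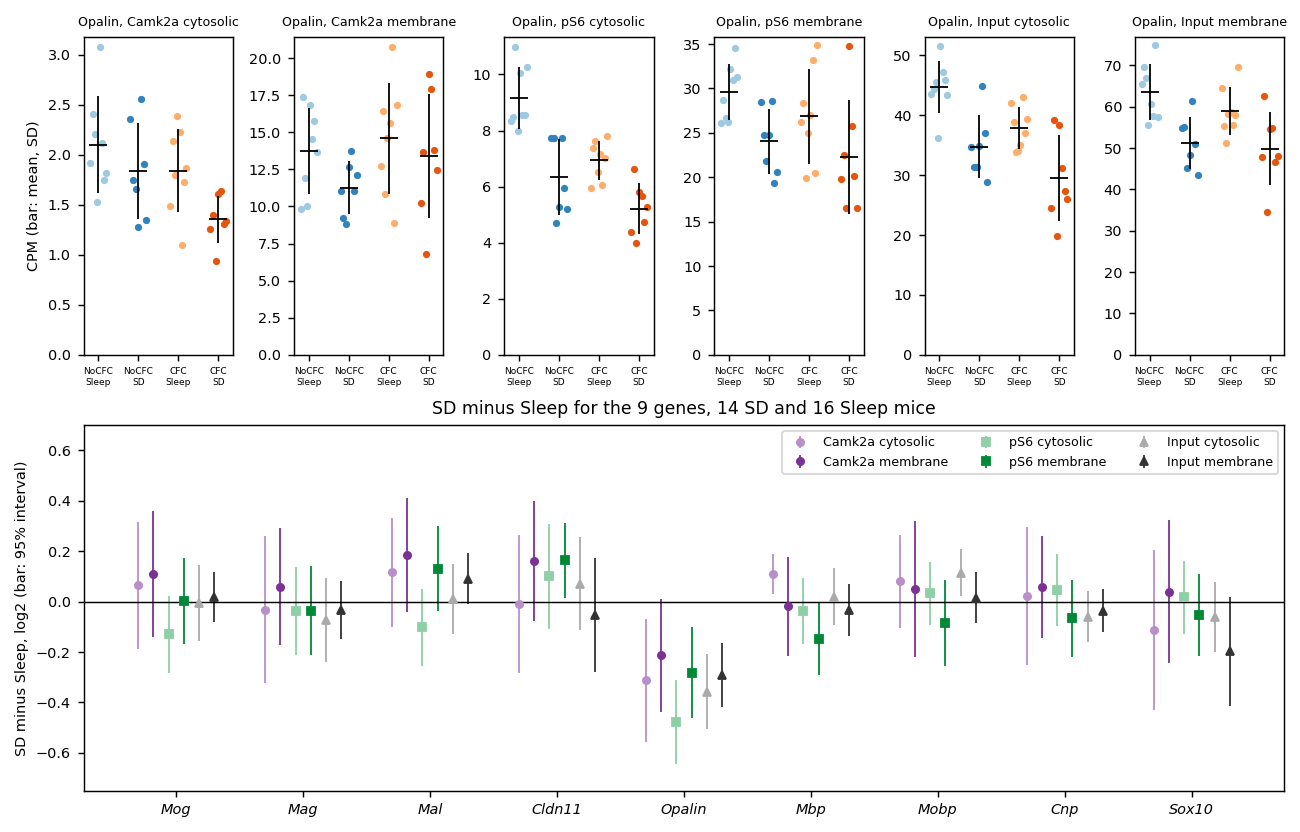
Top, CPM of Opalin in the 4 groups for each library type, 1 point a mouse with mean and SD (n = 7 or 8); bottom, SD minus Sleep (log2, 95% interval) for the 9 genes in the 6 types. Opalin lies below 0 in all 6 types, from -0.21 to -0.48, with the call made in 3 of them, and the other 8 genes were not called.

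Training was compared in the same way, over 15 CFC and 15 NoCFC mice with sleep averaged. No member was called by edgeR in the cytosolic types, where 0.148% of 14836 genes (Camk2a capture), 0.133% of 16485 (pS6 capture) and 0.219% of 15948 (Input) were. There, 2, 1 and 2 members had an unadjusted p under 0.05, and DESeq2 called 1, Opalin in the pS6 capture at -0.34 (adjusted p = 0.0361). In the membrane types members were called in both directions. In the Camk2a capture 4 of 9 were higher in CFC mice (17% of 14968 genes were called, 1469 higher and 1073 lower): Mal by 0.48 ± 0.12 (adjusted p = 0.00523), Cldn11 by 0.46 ± 0.12 (0.00973), Mog by 0.42 ± 0.13 (0.0229) and Mag by 0.37 ± 0.12 (0.0300). In the pS6 capture 2 of 9 were lower (16.8% of 16637 genes were called, 1348 higher and 1455 lower): Mbp by -0.41 ± 0.07 (0.000164) and Mobp by -0.37 ± 0.09 (0.00348). In the Input 3 of 9 were called (6.53% of 15642), Mal at 0.27 ± 0.05 (0.00121), Mbp at -0.22 ± 0.05 (0.00960) and Mobp at -0.18 ± 0.05 (0.0242). The called genes that were higher all span the membrane, and those that were lower belong to its cytoplasmic face. Members that were not called did not all follow this split: Cnp tended higher in the membrane Camk2a capture, and Opalin lower in the membrane pS6 capture. Without mouse 20, Mog (0.23), Mal (0.25) and Cldn11 (0.21) were also called higher in the membrane pS6 capture, and Mog (0.18) in the membrane Input. No CFC call of a member was kept once the run of mouse numbers was a term. That fit takes the CFC difference from run 3 alone, with 4 CFC and 4 NoCFC mice. The loss of calls therefore cannot tell run from training.

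In the membrane pS6 capture, Mbp ran from 1145 through 1466 to 1532 CPM in NoCFC Sleep mice and from 826 through 1179 to 1274 in NoCFC SD mice. In CFC mice it ran from 717 through 954 to 1131 with sleep and from 704 through 915 to 1167 after SD. None of the 15 CFC mice reached the median of the NoCFC mice of the same sleep state. Mal in the membrane Input stood at 268 ± 17.1 CPM (SD, n = 8) in NoCFC Sleep, 265 ± 8.66 (n = 7) in NoCFC SD, 293 ± 34.5 (n = 8) in CFC Sleep and 344 ± 52.0 (n = 7) in CFC SD mice. The CFC mice were higher and more spread out, with 13 of 15 above the median.

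Training and run of mouse numbers coincide in mice 1 to 22, and what else distinguished those runs is not given in the sources used here. With the run as a term, in the membrane Camk2a capture Mal stood at 0.42 (adjusted p = 0.691, edgeR), Cldn11 at 0.39 (0.735), Mog at 0.32 (0.814) and Mag at 0.20 (0.882). In the membrane pS6 capture Mbp stood at -0.16 (0.809) and Mobp at -0.02 (0.990), and in the membrane Input Mal stood at 0.42 (0.224), Mbp at -0.05 (0.968) and Mobp at 0.04 (0.979), with the other sign. Over all genes the calls in the membrane Camk2a capture went from 1469 higher and 1073 lower to 1 and 0. With the run term the CFC difference comes from run 3 alone, so fewer mice inform it. The fall in calls thus cannot separate run from training.

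The run that holds both, mice 23 to 30, gave 4 CFC against 4 NoCFC mice. There Mal was 0.33 higher in the membrane Camk2a capture, 0.34 in the membrane pS6 capture and 0.37 in the membrane Input, and Mog 0.20, 0.30 and 0.28. Mbp differed by -0.22 in the membrane pS6 capture and by -0.09 in the membrane Input, and Mobp by -0.07 and -0.00. These 4 against 4 values carry no test. The mean of Mbp was 1339 ± 155 CPM in run 1 (SD, n = 11), 927 ± 174 in run 2 (n = 11) and 1008 ± 175 in run 3 (n = 8) in the pS6 capture, and 2430 ± 215, 1988 ± 276 and 2029 ± 159 in the Input. In these means of Mbp, run 3, which holds both CFC and NoCFC mice, lay nearer to run 2 than to run 1. That did not hold for every member, and its cause was not tested. Training and run cannot be told apart in runs 1 and 2.

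Genes of other lists were called in the same comparison. In the membrane Camk2a capture, 1469 of all 14968 genes tested were called higher in CFC mice and 1073 lower. Whether the lists departed from these shares was not tested. There, 5 of 10 astrocyte, 6 of 10 microglia, 2 of 5 endothelial and 1 of 7 inhibitory genes were called higher, and 2 of 6 excitatory genes lower. The summed microglia genes ran from 158 to 276 CPM in NoCFC and from 166 to 466 in CFC mice, and the summed astrocyte genes from 1808 to 2858 and from 1618 to 4299. Of further oligodendrocyte genes in that capture, 4 of 15 myelin membrane genes (Omg, Gpr37, Cntn2 and Tspan2) and 5 of 8 lipid genes were called higher. So were 2 of 9 transcription factors (Myrf at 0.44 ± 0.10 and Olig1 at 0.41 ± 0.12) and 3 of 10 precursor genes. In the membrane pS6 capture Apod, Gltp, Gpr37 and Omg were called higher, and Cspg4 (-0.51) and Zfp536 (-0.24) lower. Apod and Lpar1 were called higher in the membrane Input, and Nkx2-2 (-0.47) lower. Of the 10 cytoplasmic and cytoskeletal genes, 1 was called higher and 1 lower in the membrane Camk2a capture, 1 and 3 in the membrane pS6 capture, and 0 and 1 in the membrane Input, so both directions occurred. Cryab, a small heat-shock protein, was called higher in the Camk2a capture (0.38, edgeR adjusted p = 0.0191) and in the pS6 capture (0.21, adjusted p = 0.0395). Qdpr (-0.18) and Sept4 (-0.19) were called lower in the pS6 capture. Bcas1, a cytoplasmic protein of early myelinating cells, was called lower in all 3 membrane types, by -0.44 ± 0.13 in the Camk2a capture, -0.44 ± 0.07 in the pS6 capture and -0.38 ± 0.06 in the Input. The part of these in the members' values was not tested.

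**Figure D4:**
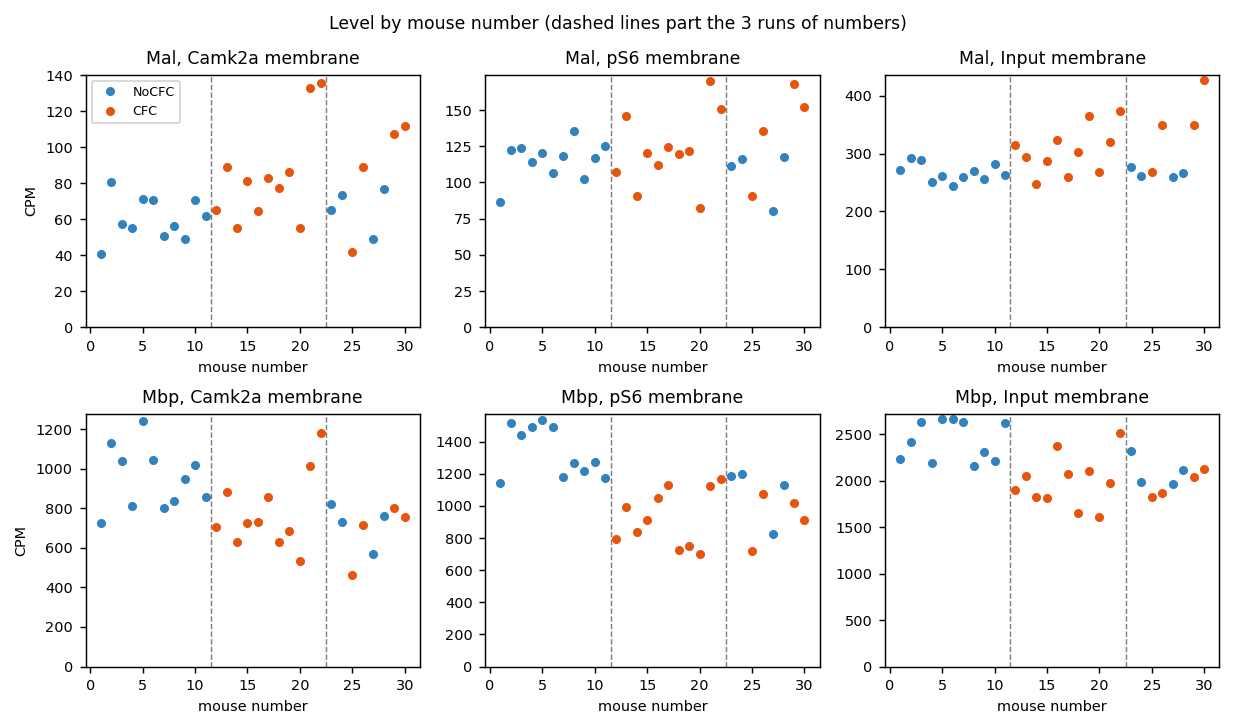
CPM of Mal (top) and Mbp (bottom) in the 3 membrane types against mouse number, 1 point a mouse, CFC in orange and NoCFC in blue; dashed lines part runs 1 to 11, 12 to 22 and 23 to 30. Mbp in the membrane pS6 capture averages 1339 in the first run, 927 in the second and 1008 in the third, where both colours occur.

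Whether the effect of SD depends on training was tested as an interaction in each type. No member was called by edgeR or DESeq2 in any of the 6 types, and neither was any other gene by edgeR (0% in each, with 295 to 712 genes at an unadjusted p under 0.05). Of 54 tests of members, 4 had an unadjusted p under 0.05: Mal (0.61 ± 0.23), Cldn11 (0.60 ± 0.24) and Mag (0.59 ± 0.24) in the membrane Camk2a capture and Mal (0.24 ± 0.10) in the membrane Input.

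Most members varied together from mouse to mouse within groups. After removal of the 4 group means, the median Pearson r over the 36 pairs of members across 30 mice was 0.83 in the membrane Camk2a capture, 0.62 in the membrane pS6 capture, 0.52 in both the cytosolic Camk2a capture and the cytosolic Input, 0.50 in the cytosolic pS6 capture and 0.45 in the membrane Input. Genes of 1 library share its depth, scaling and composition, so these values are descriptions. Mog and Mal were the closest pair in 3 types, with r of 0.95, 0.92 and 0.87 in the membrane Camk2a capture, the cytosolic Input and the membrane Input. The lowest pair was Mbp and Cldn11 in the membrane Input, at -0.57.

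The spread of the members' mean over mice was widest in the membrane Camk2a capture, with an SD of 0.318 (log2) against 0.0996 in the membrane Input. Mouse 22 was highest there, at 0.63 above its group, and mouse 25 lowest, at -0.71. In the membrane Camk2a capture this mean also ran with that of microglia (r = 0.94), inhibitory neuron (0.92) and astrocyte (0.90) genes, but not with that of excitatory neuron genes (-0.24). In the membrane Input the same values were 0.23, 0.45, -0.15 and 0.34. Mice that were high in the membrane Camk2a capture were also high in the membrane pS6 capture (r = 0.87, Spearman's rho = 0.90, and r = 0.83 without the 2 mice farthest from the median), whereas the 2 fractions of the Camk2a capture were only loosely related (r = 0.13). Within the 3 runs of mouse numbers the median pair r was 0.88 in the membrane Camk2a capture, 0.76 in the membrane pS6 capture and 0.52 in the membrane Input.

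**Figure D5:**
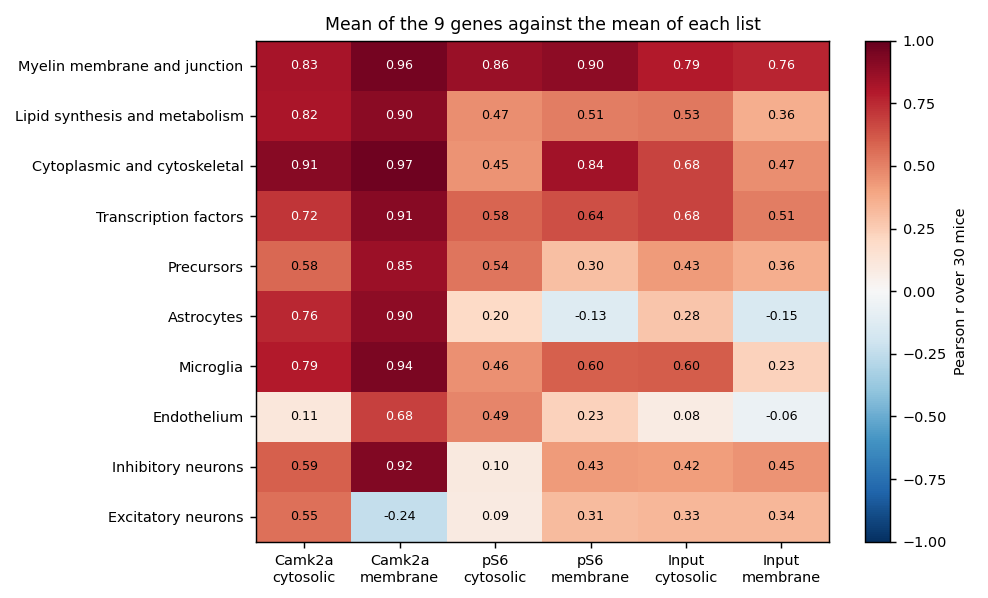
Pearson r over 30 mice, group means removed, between the mean of the 9 genes and the mean of each list of other genes (rows) in the 6 library types (columns), with red for positive and blue for negative values. In the membrane Camk2a capture every list but that of excitatory neurons (-0.24) stands at 0.68 or above, and in the membrane Input the myelin membrane list is highest at 0.76.

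Genes outside the 9 with a closely similar profile over all 180 libraries, of 12518 with a mean of at least 1 log2 CPM, included Fa2h (r = 0.987 with the members' mean z-score), an enzyme of myelin lipid hydroxylation, Tspan2 (0.982), Olig1 (0.979), Ugt8a (0.979), which makes galactosylceramide, Tmem63a (0.978), Arpc1b (0.977), Gjb1 (0.975), Gjc3 (0.975) and Tmem125 (0.972). Those 180 points share mice and library types. Over the 30 mice within the cytosolic Input, group means removed, similar genes included Cmtm5 at 0.855 and Gal3st1 at 0.821. In the membrane Input they included Tmbim1 at 0.708 and Gjb1 at 0.696. Of the members themselves in the membrane Input, Mog (0.862) and Mag (0.860) were nearest to the common mean, and Sox10 (0.153) and Cldn11 (0.0253) were hardly related to it. Each member is part of that mean, so these values do not compare with those of outside genes. Sox10 and Cldn11 ran with each other there (r = 0.73).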

How the data were processed

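Read counts per gene were deposited by the authors as 1 table of raw counts for 180 libraries (SMART-seq v4, per the labels); the submitters' processing notes name GRCm38.p6, STAR 2.6.1a, featureCounts and MultiQC 1.6a0, and the strand setting is not given in the sources used here. Groups, capture, fraction and mouse number were taken from the titles. The counts were fitted with edgeR 4.0.16 in R 4.3.3 (filterByExpr, TMM scaling, robust quasi-likelihood F-test, Benjamini-Hochberg over all genes tested) in cells of library type by the 4 groups. There were 11 comparisons between library types (adjusted p under 0.05 and a fold of 2) and 18 tests of SD, CFC and their interaction (adjusted p under 0.05). SE is the log2 difference divided by the square root of F. CPM is counts scaled to a library total of 1000000; log2 CPM used a prior count of 2. Gene models came from GENCODE M21, which matched 53775 symbols.

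Libraries of 1 number are from the same mouse, per the labels. Over the 5000 genes checked, deviations of the same mouse's libraries from their group means correlated at a median of 0.346, against -0.0142 for different mice. The 6 libraries of a mouse are paired samples, so the mouse was also fitted as a block.

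The members, lists and tests were chosen with earlier results of these data known. Named are the 9 members, genes among the 10 most like them, up to 5 genes a list that passed an SD or CFC test, and the 3 highest and lowest lineage genes in the fraction comparison; some genes that this rule names are not reported here. The fits were tested on simulated data. Alternatives were other scalings (DESeq2 size factors, library totals), DESeq2 1.42.0, no filter, all 180 libraries in 1 fit, the block, a fold of 1.5, the run of mouse numbers as a term and, chosen after seeing the data, leaving out the mouse with the highest and the one with the lowest mean over the members.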

Additional observations from a re-analysis of the deposited data

Results flagged for a closer look

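Single mice stood far from the rest of their group, by Dixon's test on CPM, in 7 of the 216 groups of 7 or 8 mice checked (9 genes, 6 types, 4 groups); chance alone flags about 1 in 20. Mbp in the membrane Input was at 2369 in mouse 16, with the other CFC Sleep mice between 1811 and 2066. Sox10 in the cytosolic Input was at 60.5 in mouse 6, with the other NoCFC Sleep mice between 91.0 and 114. In the membrane pS6 capture, Mbp was at 826 in mouse 27 (other NoCFC SD mice 1133 to 1274) and Mal at 86.7 in mouse 1 (other NoCFC Sleep mice 107 to 124). In the cytosolic pS6 capture, Mag was at 51.6 in mouse 16 (other CFC Sleep mice 29.2 to 38.6), Cldn11 at 10.8 in mouse 28 (other NoCFC SD mice 7.04 to 8.56) and Cnp at 309 in mouse 2 (other NoCFC Sleep mice 206 to 249).

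The shortfall against the Input differed between the fractions, by a test of the difference itself. For the Camk2a capture it was smaller in the membrane fraction by 2.13 (log2) for Mal, 2.35 for Cldn11, 1.34 for Mag, 2.09 for Mobp, 1.67 for Cnp, 2.24 for Sox10, 2.27 for Mog and 2.15 for Opalin. For the pS6 capture it was smaller by 1.33 for Mal, 1.32 for Mog and 1.26 for Opalin.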

How the results depend on the processing

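Of the member counts under the alternatives, 419 stayed within 1.5 times the value reported and 23 did not. The 419 include counts that were 0 both in the reported fit and in the alternative. Of single members' values, 785 kept direction and call, 35 gained a call, 23 lost one and 2 changed sign. SD, CFC and interaction values of members called under no setting are not among these. Counts of members moved as follows. The pS6 over Camk2a capture, membrane, higher, went from 0 to 1 (Cldn11) with DESeq2 size factors, library totals, DESeq2, no filter or the replicate block, and to 5 at a fold of 1.5. Membrane against cytosolic Input, lower, went from 0 to 1 (Sox10) with library totals or a fold of 1.5, and the pS6 over Input difference between fractions from 3 to 9 at a fold of 1.5. The run term took CFC calls from 4 to 0 (membrane Camk2a capture, higher), 2 to 0 (membrane pS6 capture, lower), and 1 to 0 and 2 to 0 (membrane Input, higher and lower), and turned Mobp to 0.19 in the membrane Camk2a capture and to 0.040 in the membrane Input; the cause was not tested. One fit of all 180 libraries gave 1 lower CFC call in the membrane Camk2a capture (Mobp), 3 higher in the membrane pS6 capture (Mog, Mal, Cldn11) and 0 lower in the membrane Input, and moved the SD calls of Opalin to 1 in the membrane pS6 capture and to 0 in the membrane Input (-0.29, edgeR adjusted p = 0.0768). DESeq2 gave 1 lower CFC call in the cytosolic pS6 capture (Opalin) and 2 higher in the membrane Input (Mal, Mog). Without mouse 20, higher CFC calls went from 0 to 3 in the membrane pS6 capture and from 1 to 2 in the membrane Input, and without mouse 21, lower SD calls went from 0 to 1 in the membrane pS6 capture. Mag lost its CFC call in the membrane Camk2a capture with library totals (edgeR adjusted p = 0.0597) and without the filter (0.0558). The replicate block, which pairs the libraries of a mouse, changed 2 calls of members, Sox10 in the membrane pS6 capture against Input (-0.99) and Cldn11 as above (1.01), and no other.

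Over all genes, counts that the text sets beside the members moved by over 1.5 times. Without the filter, lower calls in the Camk2a capture against Input went from 2703 to 6779 (cytosolic) and 2713 to 5065 (membrane), and in the pS6 capture from 1513 to 3390 and 619 to 1183. Higher calls in the pS6 over the Camk2a capture went from 3738 to 7259 and 2797 to 8965, and in the membrane over the cytosolic fraction from 4409 to 8444 (Camk2a), 4526 to 10543 (pS6) and 3642 to 5510 (Input). The differences between fractions went from 1289 to 2221 and 637 to 1477. One fit of all libraries took SD calls in the membrane pS6 capture from 184 higher and 103 lower to 878 and 559, and in the cytosolic Input from 325 and 181 to 138 and 58. The run term took CFC calls in the membrane pS6 capture from 1348 and 1455 to 11 and 1, and in the membrane Input all to 0. With that term the CFC difference rests on run 3 alone. For training by sleep, one fit gave 29 higher and 20 lower genes in the membrane pS6 capture, where the separate fit gave 0.

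Depth limits Cldn11 and Opalin in the cytosolic Camk2a capture, with medians of 28 and 36 counts a library.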
